A study of Drosophila melanogaster with 2 samples.

Results

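Cyclins are proteins that switch on cyclin-dependent kinases, and the cell cycle runs on their making and timed destruction. One branch of the family drives division: D- and E-type cyclins carry cells through G1 into S phase, and A- and B-type cyclins carry them into and through mitosis. Another branch, of cyclins C, H, K and T, works mainly on RNA polymerase II and its regulators, and its members are generally steadier over the cycle. The cyclin genes described here are CycA, CycB, CycB3, CycC, CycD, CycE, CycG, CycH, CycK and CycT of Drosophila melanogaster, chosen by name as 10 well known members of the family. The choice used no signal threshold but was made with earlier results of these arrays known. Of these 10 genes, 8 had a probe set that the array annotation assigns to that gene alone, each had 1 such probe set, and these are 8 of the 11982 genes measured in this way. CycA, a mitotic cyclin, and CycG had none and were not measured.

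The cells were S2, an established line from fly embryos with features of macrophage-like blood cells, grown at 25 °C in Schneider's medium with 10% serum. There was 1 group of 2 arrays, replicates 1 and 2, both from cells soaked with double-stranded RNA (dsRNA) against GFP for 8 days, given in 2 rounds of 4 days. Flies have no GFP gene, and cells without dsRNA or with another dsRNA were not analysed here, so nothing can be said of what the treatment does to any cyclin. The labels call the arrays duplicates and do not say whether they came from separate cultures, so their spread may be technical. Each level is a signal intensity of a probe set on an Affymetrix Drosophila Genome 2.0 array, on a linear scale. Growth of the cells was not recorded with the arrays, and in bulk RNA a higher share of cells in one phase of the cycle and more transcript per cell cannot be told apart.

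Detection was read against a background limit, the 95th percentile of the signals from 112 genes for smell and taste receptors (125 probe sets), and a gene counted as detected when at least 1 probe set exceeded it on each array. The limit stood at 146 on replicate 1 and 136 on replicate 2. By this rule 49.1% of all genes were detected and 38.3% of all probe sets were above the limit. The S2 label was checked against its markers: 9 of 10 plasmatocyte (macrophage-like blood cell) genes were detected, NimC1 being the exception. The call of Pxn rests on 1 of 2 probe sets, the other being below the limit at 139 on replicate 1 and 110 on replicate 2. The marker eater was lost when the 99th percentile set the limit, with which 43.8% of all genes were detected. Of the markers of other cells, 1 of 5 crystal cell and lamellocyte genes (PPO3), 1 of 4 neuronal genes (elav), 0 of 4 muscle genes and 0 of 5 germline and ovary genes were detected. The hybridisation controls, bacterial and phage transcripts added in fixed amounts, were higher on replicate 2 on all 18 probe sets, by a median of 0.30 on the log2 scale, while the median difference over detected genes was -0.0023.

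All 8 measured cyclin genes were detected, and no cyclin signal came near the limit. The share was 100%, beside 49.1% of all genes. The lowest cyclin signal on either array was that of CycD on replicate 1, 3.97 times the limit, and the farthest above it was CycB on replicate 2, at 22.6 times the limit. Probe sets differ in how strongly they respond to a given amount of transcript, so these figures say how far each probe set was from background and do not rank the cyclin transcripts by abundance.

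**Figure D1:**
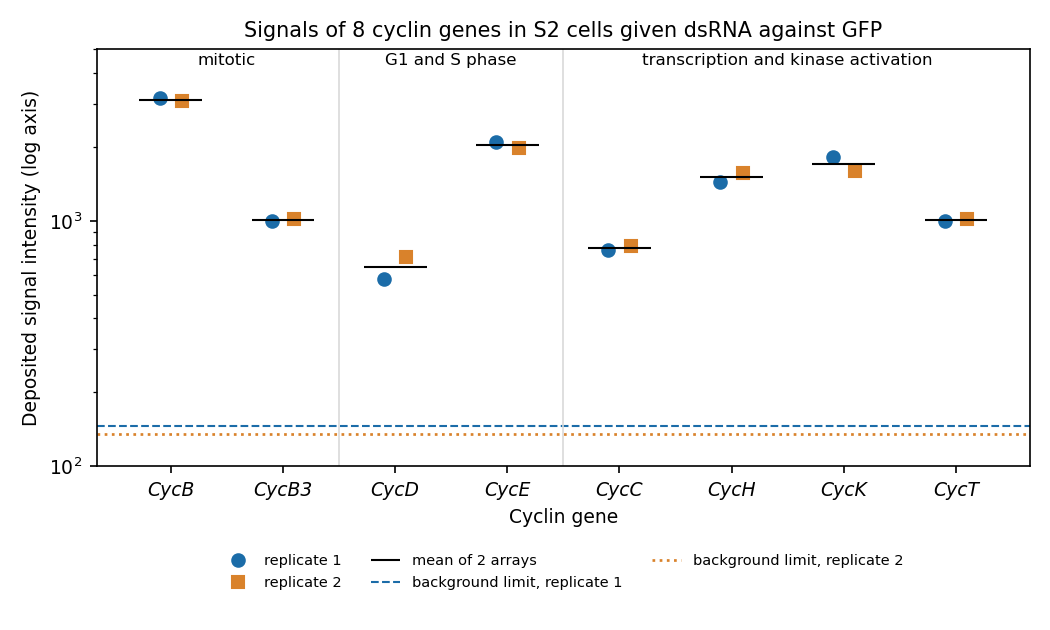
Signal intensity (log axis) of the 8 measured cyclin genes on replicate 1 (circles) and replicate 2 (squares), with the mean of the 2 arrays as a bar and the background limits of 146 and 136 as lines, grouped by what the cyclins do. All points lie above the lines, the lowest being CycD at 580 on replicate 1, and the 2 arrays stand farthest apart for CycD and next for CycK.

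The mitotic cyclins measured were CycB and CycB3. CycB, which with Cdk1 drives entry into mitosis and is destroyed at its exit, had signals of 3162 on replicate 1 and 3069 on replicate 2, or 3115 ± 66.3 (SD, n = 2). CycB3, a B-type cyclin that acts late in mitosis and is needed for female fertility in flies, had 997 and 1013, or 1005 ± 10.8 (SD, n = 2). The duplicates of both genes lay close together, with a coefficient of variation (SD over mean) of 2.13% for CycB and 1.07% for CycB3. Their usual kinase gene, Cdk1, had no probe set of its own, so the mitotic pair could not be completed from these arrays. Neither could CycA, the other cyclin of this branch.

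Of the cyclins of G1 and S phase, CycD and CycE were measured. CycD, which works with Cdk4 and in flies promotes growth as well as division, had signals of 580 on replicate 1 and 711 on replicate 2, or 645 ± 92.6 (SD, n = 2). CycE, which with Cdk2 starts DNA replication, had 2094 and 1973, or 2033 ± 85.3 (SD, n = 2). CycD had the widest spread of the 8 genes, with a coefficient of variation of 14.3%, against 4.19% for CycE. The gene table lists 6 RefSeq transcripts for CycE and 3 for CycD. The names of both probe sets carry the suffix that Affymetrix gives to probes shared by several transcripts, which may be of different genes. Neither value tells the isoforms apart, and other genes may add to it, although the annotation assigns each probe set to 1 gene. The CycK probe set has the same suffix, and that of CycB, a gene with 4 RefSeq transcripts, has the suffix for probes shared by transcripts of 1 gene.

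Of the 4 cyclins tied to transcription, CycC and CycH belong to large complexes. CycC, the partner of Cdk8 in the kinase module of Mediator, had signals of 763 on replicate 1 and 786 on replicate 2, or 774 ± 16.4 (SD, n = 2). CycH, which with Cdk7 and Mat1 forms the kinase of the general factor TFIIH and also activates the cell cycle kinases, had 1443 and 1567, or 1505 ± 87.1 (SD, n = 2). Both genes stood above the limit by at least 5.22 times on each array.

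CycK and CycT act on the elongating polymerase. CycK, the partner of Cdk12, had signals of 1813 on replicate 1 and 1602 on replicate 2, or 1708 ± 149 (SD, n = 2). CycT, which with Cdk9 makes up the elongation factor P-TEFb, had 1002 and 1014, or 1008 ± 8.37 (SD, n = 2). CycT had the smallest spread of the 8 genes, a coefficient of variation of 0.831%, while that of CycK was 8.73%.

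The duplicate arrays are 1 against 1 and allow no test, so each cyclin's difference was read against the spread of other probe sets of like signal. Detected probe sets were put into 4 equal classes by mean log2 signal, and the SD of the log2 difference, replicate 2 minus replicate 1, was 0.27, 0.22, 0.21 and 0.20 in classes of rising signal. No cyclin differed by more than 2 SD of its class, beside 3.74% of detected genes. For the cyclins that bound lies at a 1.33-fold to 1.36-fold difference. CycD had the largest difference, 0.29 on the log2 scale or 1.23-fold, and was the only 1 of the 8 beyond 1 SD of its class, beside 24.1% of detected genes. CycK followed at -0.18, and CycH stood at 0.12 and CycE at -0.09. CycB (-0.04), CycC (0.04), CycB3 (0.02) and CycT (0.02) differed by less than 0.05.

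By sign, 5 of the 8 cyclins were higher on replicate 2 and 3 were lower, beside 49.5% and 50.5% of detected genes, with a median difference of 0.02 on the log2 scale. That split depends on scaling. When each array was divided by its median, 2 of 8 cyclins and 37.0% of detected genes were higher on replicate 2. The majority sign of the cyclins was thus opposite between the deposited and the median-scaled values. With quantile normalization 5 of 8 cyclins were higher on replicate 2, beside 47.4% of detected genes. The medians, 70.8 on replicate 1 and 73.8 on replicate 2, lay below the background limits. Of the 9 detected plasmatocyte markers 8 were lower on replicate 2, beside 50.5% of detected genes. With median scaling all 9 were lower, beside 63.0% of detected genes. With quantile normalization 8 were, beside 52.1% of detected genes. On the deposited scale 0 of the 9 were past 2 SD of their class, beside 3.74% of detected genes. The summed signals of all 10 were 39253 on replicate 1 and 36105 on replicate 2. Whether this difference has a part in the cyclin differences was not tested.

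**Figure D2:**
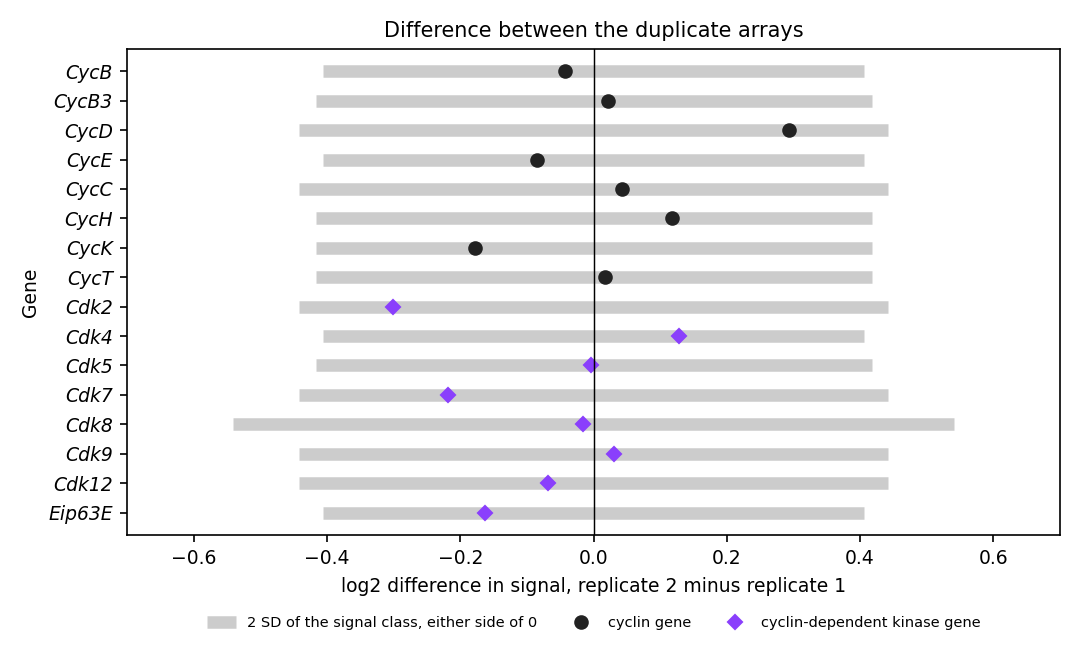
The log2 difference in signal, replicate 2 minus replicate 1, for the 8 cyclin genes (circles) and 8 cyclin-dependent kinase genes (diamonds), over grey bars that reach 2 SD of each gene's signal class on either side of 0. All 16 points lie on their bars, the widest of them CycD at 0.29 and Cdk2 at -0.30.

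A cyclin does little without its kinase, and all 8 measured cyclin-dependent kinase genes were detected as well, beside 49.1% of all genes. It follows that in each of the 6 pairs of a measured cyclin and its usual kinase, both genes were above the limit on both arrays. Cdk4, the partner of CycD, had signals of 1837 on replicate 1 and 2008 on replicate 2. Cdk2, the partner of CycE, had 984 and 799. Cdk7, the partner of CycH, had 899 and 773. These genes stood well clear of the limit on each array.

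Cdk8, the partner of CycC, had signals of 258 on replicate 1 and 255 on replicate 2, the closest to background among the kinases. It was no longer detected when the 99th percentile of receptor signals set the limit, while CycC was. With that limit 43.8% of all genes were detected. Cdk9, the partner of CycT, had 741 and 757, and Cdk12, the partner of CycK, had 807 and 770. The largest kinase difference was that of Cdk2, at -0.30 on the log2 scale, the only 1 of the 8 beyond 1 SD of its class, beside 24.1% of detected genes. The probe sets of Cdk2, Cdk4, Cdk12 and Eip63E carry the same suffix as that of CycE. Cdk1 and Pitslre had no probe set of their own.

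Beyond the cyclins above, 4 genes for other cyclins or cyclin-like activators were measured, and they lay either far above or far below the limit. CycY, a membrane-linked cyclin, had signals of 2075 on replicate 1 and 1946 on replicate 2, and its kinase gene Eip63E had 3741 and 3341. CG16903, which the gene tables leave without a name and which was entered as a cyclin-fold gene, had 1975 and 1938. CycJ, a cyclin known in flies from the ovary and early embryo, was far below the limit at 11.4 and 41.3. Cdk5alpha, the activator of the neuronal kinase Cdk5, was also far below it at 6.34 and 17.0, although Cdk5 itself had 1162 and 1158. So 2 of these 4 genes were detected, a share close to the 49.1% of all genes, and in the Cdk5 pair only the kinase gene was.

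**Figure D3:**
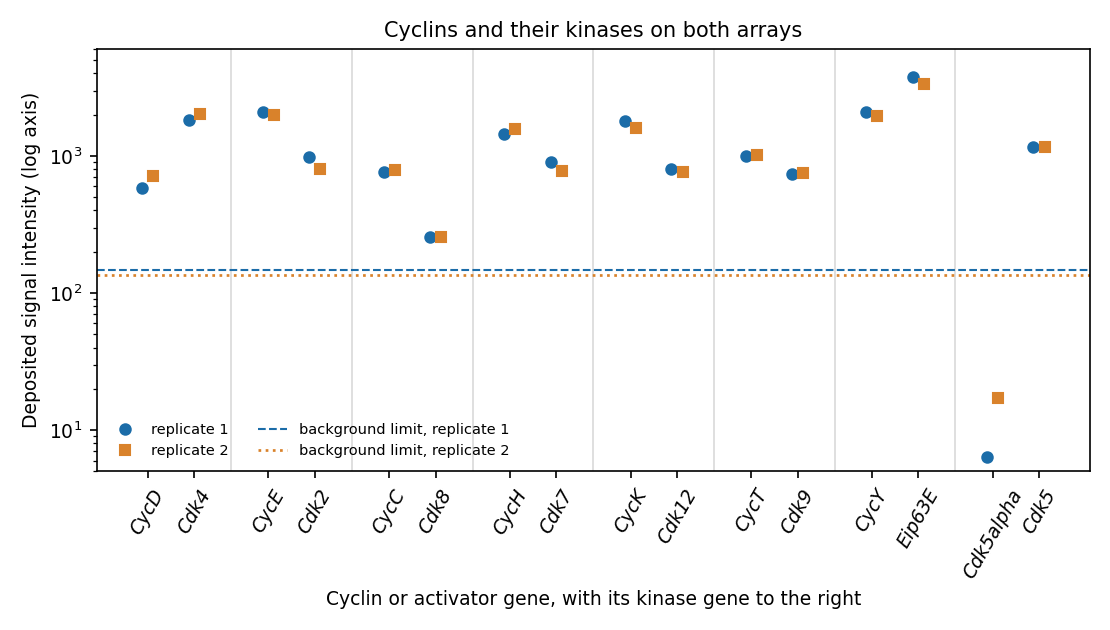
Signal intensity (log axis) of 6 measured cyclins, CycY and the activator Cdk5alpha, each with its kinase gene to the right, on replicate 1 (circles) and replicate 2 (squares), with the background limits as lines. All cyclin and kinase points lie above the limits, Cdk8 nearest to them at 258 and 255, while Cdk5alpha lies below at 6.34 and 17.0.

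The pathway around the cyclins was read from 7 lists, those of other cyclins and of kinases included. They name 81 genes, of which 67 were measured and 64, or 95.5%, were detected, beside 49.1% of all genes. The 3 that were not detected were CycJ, Cdk5alpha and cort, an activator of cyclin destruction that acts in female meiosis. Among the 64, 28 were higher and 36 lower on replicate 2, beside 49.5% and 50.5% of detected genes. With median scaling 15 were higher and 49 lower, beside 37.0% and 63.0% of detected genes. On the deposited scale only Cks30A differed by more than 2 SD of its class (1.56% of them, beside 3.74% of detected genes).

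Among regulators of the kinases, 5 of 11 genes were measured and all 5 were detected, beside 49.1% of all genes. Cks30A, a small subunit that binds Cdk1, had signals of 1636 on replicate 1 and 1220 on replicate 2, a log2 difference of -0.42, just past 2 SD of its class. Its relative Cks85A had 950 and 960. The inhibitor gene rux, whose protein restrains CycA with Cdk1, had 190 and 261, and twe, the phosphatase that activates Cdk1 in meiosis, had 183 and 244. Both rux and twe were near the limit and were lost with the 99th percentile limit, with which 43.8% of all genes were detected. The inhibitor dap and the mitotic phosphatase stg were among the 6 genes not measured.

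Cyclins end by destruction, and 15 of 16 measured genes for it were detected, beside 49.1% of all genes. The gene fzy, which directs the anaphase-promoting complex to mitotic cyclins, had signals of 3117 on replicate 1 and 2923 on replicate 2. Its other 2 probe sets were below the limit, at 27.4 and 60.3 and at 47.0 and 19.1, so its call rests on 1 of 3 probe sets. The relative fzr, which keeps cyclins low in G1, had 383 and 394, and Rca1, an inhibitor of that step, had 809 and 896. A probe set that fzr shares with BaraC, not counted here, was below the limit at 90.1 on replicate 1 and 82.9 on replicate 2. The gene cort had 97.3 and 91.1, below the limit on both arrays but above a limit drawn from control probe sets.

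The measured genes that act before and after CycE were all detected, beside 49.1% of all genes. Of the E2F, Rb and associated genes that govern entry into S phase, 8 of 10 were measured and all 8 detected. The repressor E2f2 had signals of 1215 on replicate 1 and 1346 on replicate 2, the E2F partner Dp had 2273 and 2287, and the Rb family genes Rbf and Rbf2 had 762 and 908, and 481 and 400. The activator E2f1 had no probe set of its own, and 1 that it shares with Torsin was below the limit at 97.6 and 81.9. Of 17 replication genes 14 were measured and all were detected. Among them PCNA, the sliding clamp, had 4477 and 4264, the ribonucleotide reductase gene RnrL had 4076 and 3996, and the origin recognition genes Orc1 and Orc2 had 505 and 581, and 322 and 261. Orc2 was lost with the 99th percentile limit, with which 43.8% of all genes were detected. On replicate 2, 11 of the 14 replication genes were lower, with a median of -0.11 on the log2 scale, beside 50.5% of detected genes. With median scaling 12 of the 14 were lower, beside 63.0% of detected genes. None of the 14 was past 2 SD of its class on the deposited scale.

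All 12 measured genes for partners of the transcription cyclins were detected, beside 49.1% of all genes. The Mediator kinase module gene kto, which works with CycC and Cdk8, had signals of 513 on replicate 1 and 673 on replicate 2. Its companion skd had 958 and 888, and a further skd probe set was also above the limit, at 485 and 592. Mat1, the third subunit of the CycH kinase, had 1397 and 1413, and the TFIIH helicase gene hay had 1085 and 1385. Hexim and Larp7, which hold P-TEFb inactive and were named after their values were seen, had 210 and 194 on replicate 1 and 195 and 247 on replicate 2. Those 2 genes were lost with the 99th percentile limit, with which 43.8% of all genes were detected. CycT and Cdk9 were still detected with it. Probe sets differ in response, so this does not set the levels of these genes against each other. The gene bin3, listed beside them, stood far above the limit, at 2095 on replicate 1 and 2034 on replicate 2.

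**Figure D4:**
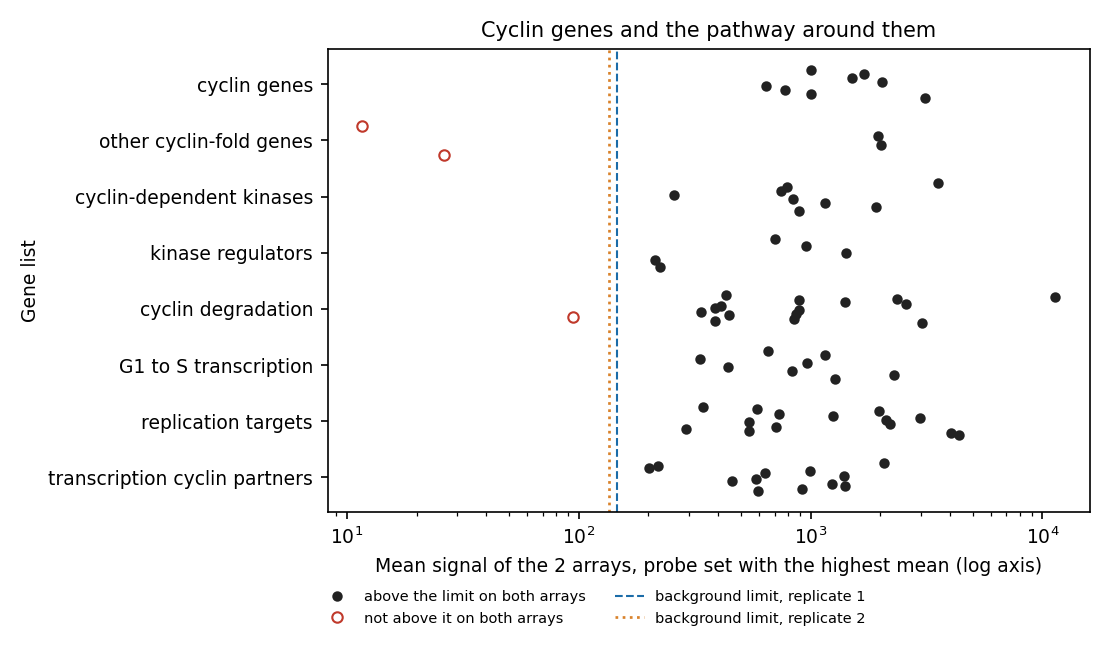
Mean signal of the 2 arrays (log axis) for the measured genes of the cyclin list and of 7 lists around it, 1 point a gene by its probe set with the highest mean, with the background limits as lines. Filled points are above the limit on both arrays and open points are not; the 3 open points are Cdk5alpha, CycJ and cort, and all 8 cyclin genes are filled.

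The series title concerns small RNAs made where transcription runs both ways, so genes whose annotated spans overlap a cyclin's were looked up, without regard to strand. Of the 8 measured cyclins, CycC and CycK overlap another protein-coding gene. CG3651, which overlaps CycK, had signals of 2100 on replicate 1 and 2038 on replicate 2. Whether the CycK probe set also reads CG3651 transcripts was not tested. CG33332, which overlaps CycC, had 197 and 164, just above the limit and below the 99th percentile limit of 279 on replicate 2. Of the genes that overlap the cyclins not measured, CG7264 at CycA (33.3 and 30.6) and Med at CycG (70.6 and 135) were not detected. Med lay just under the limit on replicate 2 and well under it on replicate 1. In all, 2 of 4 overlapping genes were detected, near the 49.1% of all genes, and the arrays do not show whether transcripts of the 2 genes meet.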

How the data were processed

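The authors deposited 1 signal intensity per probe set and array for 18952 probe sets, from 2 Affymetrix arrays read with GeneChip Operating Software per the series' design text. Not given in the sources used here are the summary algorithm, scaling and genome build. Values were used as deposited, and only 2 arrays limit their precision. Platform annotation gave 1 gene for 13647 probe sets and several for 402, which name none. Symbols were updated by gene identifier from RefSeq (fly assembly release 6). A gene's level is the mean of its probe set with the highest mean. Before log2, a floor of 1 was set. No test was run, since there is 1 group. Alternatives were other limits, requiring every probe set, single arrays, median and quantile scaling, a floor of 16 and the lowest probe set. The members and gene lists were chosen with earlier results of these data known. Text names all members, other cyclins and kinases. From each other list it names the first 4 measured genes, those not detected and those past 2 SD. Hexim, Larp7 and bin3 were named outside this rule. Kinase pairs and overlapping genes were chosen after the values were seen. Computations used Python 3.11.15, numpy 2.4.6 and pandas 2.3.3.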

Additional observations from a re-analysis of the deposited data

Results flagged for a closer look

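The anaphase-promoting complex gene lmgA was measured only through a probe set that the annotation shares with lmgB, which the comparisons above do not use. That probe set was above the background limit on both arrays, at 1080 on replicate 1 and 1011 on replicate 2, or 1045 ± 48.4 (SD, n = 2).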

How the results depend on the processing

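All 8 cyclin genes and their 8 probe sets were above the limit with the 90th or 99th percentile limit, with a limit from 50 control probe sets and with either array alone, and all 8 genes also when all of a gene's probe sets were required. Over those settings 43.8% to 55.5% of all genes were detected. Each cyclin level moved by less than its SD under median or quantile scaling. Both scalings bring the 2 arrays to their shared average, so a mean of the 2 could move little. This says little of how stable the levels are. With median scaling 2 of 8 cyclins were higher on replicate 2, while 5 were with quantile normalization. A floor of 16 could not change this count, since every cyclin signal was far above it. The 99th percentile limit left 3 of 5 kinase regulators and 0 of 4 neuronal markers detected, against 5 and 1. It left 43.8% of all genes detected, against 49.1%. Of 10 plasmatocyte markers, 8 were detected with that limit or with every probe set required. With the limit from control probe sets 10 were. For germline and ovary markers 1 of 5 (Cp15) was detected with the 90th percentile limit or the limit from control probe sets. Leaving out an array gave 0 to 1 for that list. In settings chosen after seeing the data, Cks30A was past 2 SD with median scaling and quantile normalization, at -0.48 and -0.42. These settings reuse the same 2 signals. Median scaling put the median difference of detected genes at -0.06. The share of detected genes past 2 SD with these scalings is not given here. A floor of 16 could not change Cks30A, whose signals were far above it. Using the lowest probe set, or requiring every probe set, could change nothing for the cyclins because each has 1. Array differences need both arrays and so have no value with 1 left out. No paired analysis was possible because there is 1 group.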
